A study of Rattus norvegicus with 18 samples.

Results

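A set of 7 genes of the integrated stress response and of endoplasmic reticulum (ER) stress were followed in rat hearts: Atf4 (ENSRNOG00000017801), Atf3 (ENSRNOG00000003745), Ddit3 (ENSRNOG00000006789), Asns (ENSRNOG00000007546), Trib3 (ENSRNOG00000007319), Fgf21 (ENSRNOG00000020990) and Hspa5 (ENSRNOG00000018294). They were taken as a list of named members of these pathways, drawn up with earlier results of these data known, and make up 7 of the 32545 gene identifiers in the deposited table. The table lists Ensembl identifiers without symbols, and the 7 symbols are those given with the gene list. The series asked how doxorubicin, an anthracycline cancer drug that injures heart muscle, changes heart RNA, and how AICAR, a nucleoside that activates the kinase AMPK, acts in that setting. All 18 animals were male Wistar rats, an outbred strain, weighing 250 g at the start. The saline group (6 animals, numbered 51 to 56) received 5 weekly injections of sterile saline by vein. The DOX+saline group (6 animals, numbered 1 to 6) received doxorubicin at 3 mg/kg per week by vein in 5 weekly injections, with saline under the skin. The DOX+AICAR group (6 animals, numbered 7 to 12) received the same doxorubicin course with AICAR at 0.5 g/kg under the skin. Each animal gave 1 library, and a group given AICAR without doxorubicin was not analysed here.

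In the integrated stress response, kinases that sense amino acid shortage, unfolded protein, viral RNA or haem shortage phosphorylate the translation factor eIF2alpha. General protein synthesis then slows, while the mRNA of the transcription factor ATF4 is translated more, so ATF4 activity is controlled largely at the level of its protein. ATF4 acts with partners on genes for amino acid synthesis and transport and on the genes of the transcription factors ATF3 and CHOP (gene Ddit3). ER stress feeds into the same route through the kinase PERK, and in parallel through ATF6 and IRE1, which raise ER chaperones such as BiP (gene Hspa5). FGF21 is a hormone whose gene ATF4 can induce and which stressed heart muscle has been described to release.

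RNA came from heart tissue and not from sorted cells, so fewer cells of a type and less RNA per cell cannot be told apart in any value below. Values are TPM (reads per unit of gene length, expressed as a share of 1000000 within the library), which allows levels of different genes to be compared. Whole reads recovered from the TPM values gave 20566761 to 31316154 reads per library. DOX+saline animals 1 and 6 were more alike than any other pair of the same group: the median chi-square of their reads over genes was 0.605, against 1.23 to 6.95 for the other pairs and 0.455 from sampling alone. Their mean chi-square was 5.05, above sampling noise but also the lowest of all pairs. That value cannot tell 2 animals from 2 libraries of 1 animal. They were kept as 2 animals because the labels number them apart, and results that depend on them are given without them too. All saline animals come from another number series than the doxorubicin animals, so any difference between the cohorts and the effect of doxorubicin cannot be told apart. Cell type markers could not be checked, because 0 of the identifiers matched the reference gene table.

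Promoter sequence was examined for 6 of the genes, to show which of them carry the elements known for these pathways close to the start of transcription. Sequences are from RefSeq, build GRCr8, and cover the 250 bases before the annotated start site, 5′ to 3′ on the strand of the gene. The elements searched on both strands were the C/EBP-ATF element core TGATGNAA, the kind of site ATF4 binds with its partners, and the ER stress element, CCAAT and CCACG with 9 bases of any kind between them, through which ATF6 acts on chaperone genes. These motifs do not overlap with each other in the windows below. Capitals mark a match.
Asns, chr4:36769416-36769665, minus strand: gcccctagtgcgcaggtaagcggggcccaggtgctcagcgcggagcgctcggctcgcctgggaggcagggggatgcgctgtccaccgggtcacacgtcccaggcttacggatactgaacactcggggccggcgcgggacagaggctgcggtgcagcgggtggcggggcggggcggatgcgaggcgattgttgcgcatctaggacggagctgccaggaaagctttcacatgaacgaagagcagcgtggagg
Trib3, chr3:161275534-161275783, minus strand: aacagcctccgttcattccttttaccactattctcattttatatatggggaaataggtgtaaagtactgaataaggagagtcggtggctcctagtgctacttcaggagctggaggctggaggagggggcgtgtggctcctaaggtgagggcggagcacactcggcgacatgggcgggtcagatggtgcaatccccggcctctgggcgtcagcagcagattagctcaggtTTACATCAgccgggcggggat
Fgf21, chr1:105221377-105221626, minus strand: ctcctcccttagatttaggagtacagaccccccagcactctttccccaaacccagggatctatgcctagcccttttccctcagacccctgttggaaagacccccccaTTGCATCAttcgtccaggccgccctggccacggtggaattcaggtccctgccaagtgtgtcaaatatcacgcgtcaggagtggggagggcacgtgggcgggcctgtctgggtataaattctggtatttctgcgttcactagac
Hspa5, chr3:38452766-38453015, plus strand: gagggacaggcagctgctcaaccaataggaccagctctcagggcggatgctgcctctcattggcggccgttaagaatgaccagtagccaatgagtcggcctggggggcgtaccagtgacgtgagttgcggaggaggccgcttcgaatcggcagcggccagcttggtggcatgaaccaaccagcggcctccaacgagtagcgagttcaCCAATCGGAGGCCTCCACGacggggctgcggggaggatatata

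The C/EBP-ATF core lay 21 to 14 bases before the start of Trib3 and 143 to 136 bases before the start of Fgf21, in both on the opposite strand. It was found in 2 of the 6 genes searched and in 3.27% of all 27457 promoter windows of the same length. The ER stress element lay 43 to 25 bases before the start of Hspa5, in 1 of the 6 genes searched and in 0.0765% of all windows. The windows of Atf4, Ddit3 and Asns held neither set of letters. A match describes sequence only, and absence of a match in this window says nothing about sites elsewhere.

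Atf3, Asns, Trib3 and Atf4 were higher in DOX+saline hearts than in saline hearts with and without a filter on low values. Without the filter all 7 members entered the limma fit and these 4 were called, where 27.5% of all 25878 genes were called higher. With at least 1 TPM required in at least 6 libraries, Fgf21 was dropped and Hspa5 was called too, which made 5 of the 6 members kept. Mean TPM was higher by 14.2-fold for Asns, 13.7-fold for Atf3, 3.11-fold for Trib3, 1.23-fold for Atf4 and 1.139-fold for Hspa5, while Ddit3, which encodes CHOP, did not pass the test at a ratio of 0.998, nor did Fgf21 at 1.18. Over the 14732 genes kept by the filter, 58% were called in either direction and 38% were called higher in DOX+saline than in saline (limma, adjusted p below 0.05), so a call by itself was common here. Without the filter the median log2 change was 0.29 over the 7 members and 0.066 over all genes, and with it 0.79 over the 6 members kept and 0.10 over all genes kept. Asns met 1 TPM in only 2 saline libraries and was kept by the filter through the doxorubicin libraries, where it was high.

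**Figure D1:**
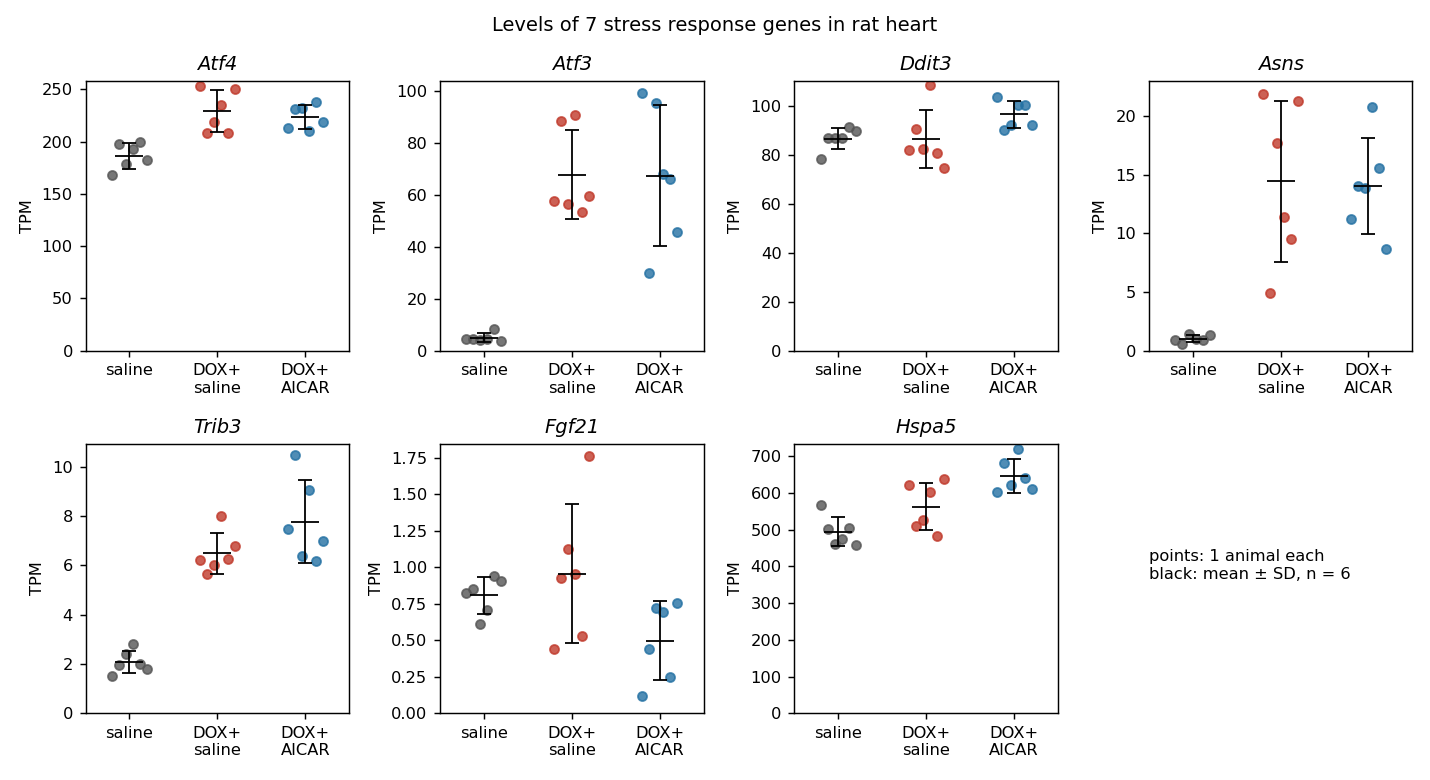
TPM of each of the 7 genes by group on linear axes from 0, with 1 point per animal and black bars for mean ± SD (n = 6). In the panels of Atf4, Atf3, Asns and Trib3 all 12 doxorubicin animals lie above the highest saline animal, while the groups overlap for Ddit3 and Fgf21.

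Atf4, the central transcription factor of the response, was abundant in every heart. Its level ranged from 168 to 199.6 TPM in saline animals (median 188), from 208 to 254 TPM in DOX+saline (median 227) and from 211 to 238 TPM in DOX+AICAR (median 225). Every doxorubicin animal lay above every saline animal, although the difference was small. The saline mean was 187 ± 12.3 TPM and the DOX+saline mean 229 ± 20.3 TPM (SD, n = 6). On the log2(TPM + 1) scale the change was 0.29 (SE 0.06, 95% interval 0.17 to 0.41, limma adjusted p = 0.000302). Relative to the median of all genes this was a change of 0.19, and its place among the 14732 genes, counted from the highest change, was 4598. Groups that did not overlap with DOX+saline higher were found in 21.1% of all genes. With median-of-ratios scaling the change was 0.17 (limma adjusted p = 0.0128), and the call remained in each of the 29 alternatives.

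Atf3, a stress-induced transcription factor of the ATF/CREB family, had the highest log2 change of the members on the log2(TPM + 1) scale, while Asns had the highest ratio of means. Saline animals had 3.71 to 8.49 TPM (median 4.398), DOX+saline animals 53.6 to 90.8 TPM (median 58.7) and DOX+AICAR animals 29.8 to 99.1 TPM (median 67.1). The highest saline value, animal 55, lay well below the lowest doxorubicin value, DOX+AICAR animal 8. The saline mean was 4.97 ± 1.75 TPM and the DOX+saline mean 67.8 ± 17.1 TPM (SD, n = 6). The log2 change was 3.54 (SE 0.25, 95% interval 3.01 to 4.06, limma adjusted p = 8.3e-09). It held place 36 of 14732 genes. The recovered reads behind a value were 114 to 376 in saline and 2199 to 3548 in DOX+saline. In the reference annotation the Atf3 span overlaps 1 other gene, Garin4, and the strand setting of the counting is not given in the sources used here, so some reads could belong to that gene.

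Ddit3 encodes CHOP, the transcription factor often used as a sign that ER stress has reached its pro-apoptotic arm. Its transcript stood at 78.6 to 91.5 TPM in saline (median 87.0), 74.9 to 109 TPM in DOX+saline (median 82.3) and 90.2 to 104 TPM in DOX+AICAR (median 96.6). Those groups overlapped, with 1 DOX+saline animal (animal 4) above the highest saline animal. The saline mean was 86.8 ± 4.47 TPM and the DOX+saline mean 86.7 ± 11.9 TPM (SD, n = 6). The log2 change was -0.012 (SE 0.07, limma adjusted p = 0.899), and its 95% interval of -0.16 to 0.13 corresponds to 0.896-fold to 1.098-fold. The sign of so small a value turned in 6 of 29 alternatives, none of which brought a call. The Ddit3 span overlaps 2 annotated genes, Mars1 and an uncharacterised locus, and the same limit on counting applies.

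Asns encodes asparagine synthetase, which makes asparagine from aspartate and glutamine and is a classic ATF4 target. It was scarce in saline hearts, from 0.584 to 1.404 TPM (median 0.946), where 17 to 49 reads stood behind a value. It reached 4.96 to 21.9 TPM in DOX+saline (median 14.5) and 8.64 to 20.8 TPM in DOX+AICAR (median 13.97). Every doxorubicin animal lay above every saline animal, and DOX+saline animal 2 was the lowest of the 12. The saline mean was 1.02 ± 0.300 TPM and the DOX+saline mean 14.4 ± 6.87 TPM (SD, n = 6), a ratio of 14.2. The log2 change was 2.80 (SE 0.27, 95% interval 2.23 to 3.38, limma adjusted p = 2.33e-07), and without the filter, which Asns passed only through the doxorubicin libraries, the same change had limma adjusted p = 7.41e-07. Because the saline level is near the pseudocount, the size depends on the scale: a pseudocount of 0.1 gave 3.58 and voom on recovered reads gave 3.68. Without DOX+saline animals 1 and 6, which had the highest Asns values of their group, it was 2.46 (limma adjusted p = 2.29e-06). The promoter window of Asns shown above held no C/EBP-ATF core, while that of Trib3 did.

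Trib3 encodes a pseudokinase that is induced by ATF4 and CHOP, binds ATF4 and dampens its activity. Saline animals had 1.51 to 2.80 TPM (median 1.99), DOX+saline animals 5.66 to 8.01 TPM (median 6.24) and DOX+AICAR animals 6.18 to 10.5 TPM (median 7.23). Neither doxorubicin group overlapped with saline, and they overlapped with each other. The saline mean was 2.08 ± 0.456 TPM and the DOX+saline mean 6.49 ± 0.828 TPM (SD, n = 6). The log2 change was 1.29 (SE 0.12, 95% interval 1.03 to 1.54, limma adjusted p = 1.65e-07), place 591 of 14732 genes. Between 34 and 73 reads stood behind a saline value and 151 to 208 behind a DOX+saline value.

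Fgf21 was at the edge of detection in all groups, with 1 to 14 recovered reads per library. It ranged from 0.610 to 0.943 TPM in saline (median 0.837), from 0.441 to 1.76 TPM in DOX+saline (median 0.938) and from 0.121 to 0.757 TPM in DOX+AICAR (median 0.568). The 6 libraries of a group together held 40 reads for saline, 49 for DOX+saline and 26 for DOX+AICAR. Fgf21 was therefore tested alone, by two-sided exact permutation of the group labels, with adjustment over 3 comparisons. DOX+saline differed from saline by 0.08 on the log2(TPM + 1) scale (exact permutation p = 0.608, adjusted p = 0.608). DOX+AICAR was lower than saline by a log2 difference of -0.29 (exact permutation p = 0.0303, adjusted p = 0.0909) and than DOX+saline by -0.37 (exact permutation p = 0.0606, adjusted p = 0.0909), neither past the threshold after adjustment. Without DOX+saline animal 1 the difference of DOX+AICAR from DOX+saline was -0.45 (exact permutation p = 0.0303, adjusted p = 0.0455). The comparison with saline does not contain that animal, and its difference of -0.29 and exact permutation p of 0.0303 stayed the same. Its adjusted p became 0.0455 there only through the adjustment over 3 comparisons. The comparison with saline passed the threshold with median-of-ratios scaling (-0.34, exact permutation, adjusted p = 0.0455) and without DOX+AICAR animal 12 (-0.34, exact permutation, adjusted p = 0.0455).

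Hspa5 encodes BiP, the main chaperone of the ER lumen and the member with the highest level. Saline animals had 459 to 566 TPM (median 487), DOX+saline animals 482 to 637 TPM (median 564) and DOX+AICAR animals 602 to 720.2 TPM (median 631). Saline and DOX+saline animals overlapped, with 3 of 6 DOX+saline animals above the highest saline animal. The saline mean was 494 ± 40.1 TPM and the DOX+saline mean 563 ± 65.2 TPM (SD, n = 6). The log2 change was 0.18 (SE 0.07, 95% interval 0.03 to 0.33, limma adjusted p = 0.038). Relative to the median of all genes the change was 0.08. With median-of-ratios scaling the change was 0.06 (limma adjusted p = 0.504), and without DOX+saline animals 1 and 6 it was 0.10 (limma adjusted p = 0.264). The call was lost in both, and also when any of 7 animals was left out, at limma adjusted p = 0.0919 without DOX+saline animal 1, 0.079 without 4 and 0.0969 without 6, and at 0.0514, 0.0784, 0.0709 and 0.0808 without saline animals 52, 53, 54 and 56. It was also lost with only the 12 libraries compared (limma adjusted p = 0.0594) and without the filter on low values (limma adjusted p = 0.0587).

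**Figure D2:**
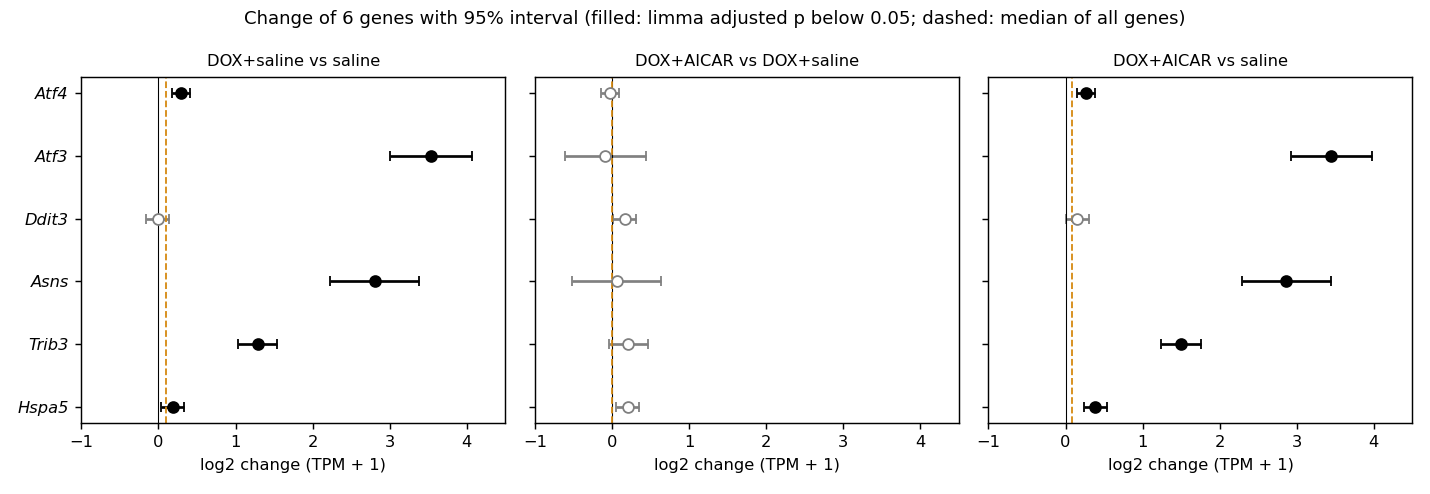
Change of the 6 tested genes on the log2(TPM + 1) scale with 95% intervals, in 1 panel per comparison (first-named group minus second, n = 6 each). Filled points passed limma's adjusted p threshold of 0.05 and the dashed line is the median of all genes tested; Atf3, Asns and Trib3 lie far to the right of that line in both comparisons with saline, and no point is filled in DOX+AICAR against DOX+saline.

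The effect of adding AICAR was examined by comparing DOX+AICAR with DOX+saline. None of the 6 members kept by the filter was called (limma). With voom on recovered reads 0 members were called, beside 226 of all 14732 genes. There 1 member had an unadjusted p below 0.05, beside 2666 of all genes. An unadjusted p below 0.05 in limma was found for 2 of the 6 and for 17.6% of all genes kept. Without the filter 0 of 7 members and 148 of all 25878 genes were called. With the filter 1.33% of all genes were called. Their number, 196, fell to 36 when DOX+AICAR animal 10 was left out and came to 461 when DOX+saline animal 2 was. The DOX+AICAR mean was 14.03 ± 4.13 TPM for Asns, against 14.4 ± 6.87 TPM without AICAR, and 67.4 ± 27.1 TPM for Atf3, against 67.8 ± 17.1 TPM (SD, n = 6). The intervals remain wide for these genes. For Asns the log2 difference was 0.06 (95% interval -0.51 to 0.64, limma adjusted p = 0.935), which spans 0.701-fold to 1.55-fold. For Atf3 it was -0.09 (95% interval -0.61 to 0.44, limma adjusted p = 0.897), or 0.653-fold to 1.36-fold.

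For Atf4 the interval was narrow, with a log2 difference of -0.03 (95% interval -0.15 to 0.09, limma adjusted p = 0.831). Trib3 averaged 7.77 ± 1.68 TPM in DOX+AICAR, a log2 difference from DOX+saline of 0.21 (95% interval -0.04 to 0.47, limma adjusted p = 0.378), with 2 of 6 DOX+AICAR animals above the highest DOX+saline animal. The members with an unadjusted p below 0.05 were Hspa5 and Ddit3, both with higher means in DOX+AICAR. Hspa5 averaged 646 ± 46.2 TPM, a log2 difference of 0.20 (95% interval 0.05 to 0.36, limma adjusted p = 0.152), and 3 of 6 animals lay above the highest DOX+saline animal. Without DOX+saline animals 1 and 6, the highest of their group for Hspa5, the difference was 0.29 (limma adjusted p = 0.049). No other alternative brought a call for Hspa5 here. With array weights its difference was 0.14 (limma adjusted p = 0.244), and without DOX+AICAR animal 10 it was 0.17 (limma adjusted p = 0.282). Ddit3 averaged 96.7 ± 5.66 TPM, a log2 difference of 0.16 (95% interval 0.02 to 0.31, limma adjusted p = 0.231), and all 6 animals lay above the DOX+saline mean but none above its highest animal. Without DOX+saline animal 4, that highest animal, the difference was 0.23 (limma adjusted p = 0.0456), and with array weights it was 0.22 (limma adjusted p = 0.0436). Without DOX+saline animals 1 and 6 the Ddit3 difference fell to 0.10 (limma adjusted p = 0.467).

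Against saline, DOX+AICAR hearts had Atf4, Atf3, Asns, Trib3 and Hspa5 higher, 5 of the 6 members kept by the filter and also 5 of 7 without it, where 23.4% of all genes were called higher. With the filter 53.3% of genes were called in either direction and 34.8% were called higher. These comparisons share the saline animals. For Atf3 the log2 change was 3.54 in DOX+saline and 3.45 in DOX+AICAR, for Asns 2.80 and 2.86, and for Atf4 0.29 and 0.26. The ratio of mean Trib3 to saline was 3.11 in DOX+saline and 3.73 in DOX+AICAR. Calls against saline here had limma adjusted p = 1.79e-08 for Atf3, 2.62e-07 for Asns, 4.76e-08 for Trib3 and 0.000855 for Atf4, and none of these 4 genes overlapped with saline. Hspa5 was higher by 0.39 (SE 0.07, 95% interval 0.23 to 0.54, limma adjusted p = 0.000235), its groups did not overlap, and the call held in each of the 29 alternatives, with median-of-ratios scaling at 0.27 (limma adjusted p = 0.00478). Groups that did not overlap with DOX+AICAR higher were found in 22.9% of all genes. Ddit3 differed from saline by 0.15 (95% interval 0.01 to 0.30, limma adjusted p = 0.0729), with 5 of 6 DOX+AICAR animals above the highest saline animal. It passed the threshold with array weights (limma adjusted p = 0.0479). It also did so with only the 12 libraries compared (limma adjusted p = 0.0123) and without DOX+saline animal 4 (limma adjusted p = 0.0148). DOX+saline animals are not part of this difference, so leaving them out altered the estimate of spread and not the change. With median-of-ratios scaling the Ddit3 change was 0.04 (limma adjusted p = 0.687). The median change of all genes in this comparison was 0.09.

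The order of the members by level was, in saline hearts, Hspa5, Atf4, Ddit3, Atf3, Trib3, Asns and Fgf21. Each neighbouring pair held this order in 6 of 6 saline animals except Asns and Fgf21, which held it in 4 of 6. In doxorubicin hearts the order of Asns and Trib3 was the other way round: Asns was below Trib3 in all 6 saline animals, above it in 5 of 6 DOX+saline animals and above it in 6 of 6 DOX+AICAR animals. Atf3 exceeded Ddit3 in 0 of 6 saline, 0 of 6 DOX+saline and 1 of 6 DOX+AICAR animals.

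**Figure D3:**
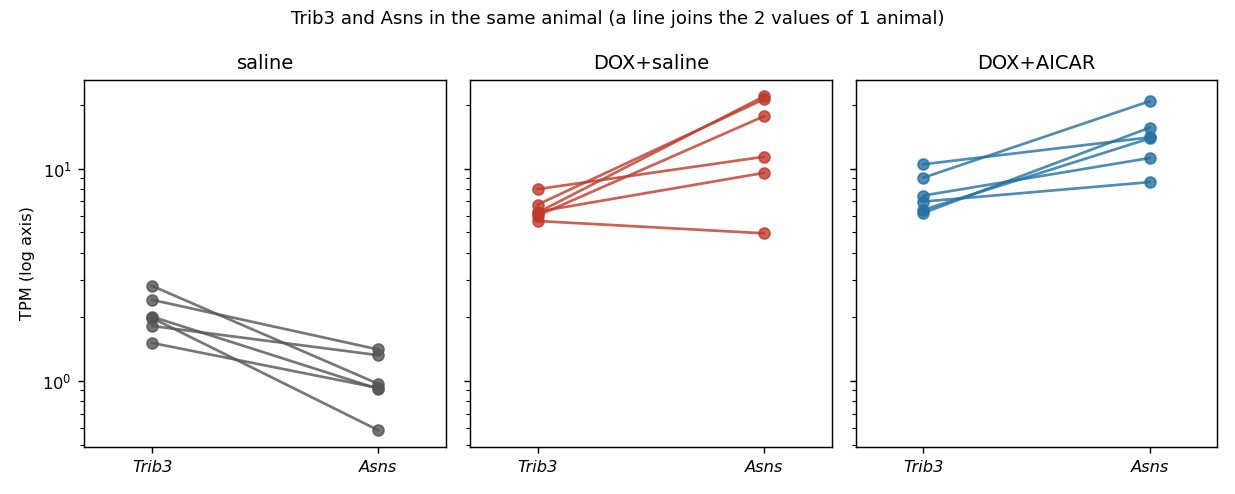
TPM of Trib3 and Asns in the same animal on a log axis, with 1 line per animal and 1 panel per group. Lines fall from Trib3 to Asns in all 6 saline animals and rise in 11 of the 12 doxorubicin animals, the exception being DOX+saline animal 2.

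Spread between animals of a group differed by gene, and Fgf21, with few reads, had the highest relative spread of the doxorubicin groups, at 49.6% and 54.4% (coefficient of variation, SD over mean). The coefficient of variation of Asns was 47.5% in DOX+saline and 29.4% in DOX+AICAR, against 8.85% and 5.09% for Atf4. Atf3 varied by 25.1% in DOX+saline and 40.2% in DOX+AICAR. DOX+saline animals 1 and 6, the pair of libraries most alike, had the highest Atf4 (254 and 250.3 TPM), Asns (21.9 and 21.2 TPM) and Hspa5 (622 and 637 TPM) of their group, while their Atf3 was 57.7 and 59.7 TPM, beside a group median of 58.7 TPM. In DOX+AICAR, animal 8 had the lowest Atf3 (29.8 TPM) and the highest Trib3 (10.5 TPM), and animal 10 had the highest Asns (20.8 TPM) and Hspa5 (720.2 TPM).

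Whether members vary together between animals was asked within each group of 6, for 21 pairs in 3 groups, or 63 relations. None passed after adjustment (lowest adjusted exact permutation p = 0.437). Where chance gives about 5% of relations, 3 of 63 had an unadjusted exact permutation p below 0.05 by Pearson's r, as did 3 by Spearman's rho. The highest was that of Atf4 with Hspa5 in DOX+saline, at r = 0.973 (exact permutation p = 0.00694, adjusted p = 0.437) and rho = 0.943 (exact permutation p = 0.0167, adjusted p = 0.7), and r was 0.970 without the 2 animals farthest from the median Atf4. In DOX+AICAR the same pair had r = -0.12 (exact permutation p = 0.782, adjusted p = 0.955) and in saline r = -0.37 (exact permutation p = 0.487, adjusted p = 0.925). The others below 0.05 by Pearson's r were Atf3 with Ddit3 in DOX+saline and Asns with Hspa5 in DOX+AICAR. Atf3 with Ddit3 had r = 0.838 (exact permutation p = 0.0389, adjusted p = 0.817), and -0.592 without the 2 animals farthest from the median Atf3. Asns with Hspa5 had r = 0.824 (exact permutation p = 0.0319, adjusted p = 0.817), and 0.592 without the 2 farthest from the median Asns. Atf4 with its target Asns had r = 0.790 in DOX+saline (exact permutation p = 0.0764, adjusted p = 0.925) and 0.493 without the 2 animals farthest from the median Atf4. By Spearman's rho this relation was among the 3 below 0.05, at rho = 0.886 (exact permutation p = 0.0333, adjusted p = 0.7). In DOX+AICAR Atf4 with Asns had r = 0.041 (exact permutation p = 0.942, adjusted p = 0.982) and in saline r = -0.461 (exact permutation p = 0.3875, adjusted p = 0.925). In DOX+saline the 2 animals farthest from the median Atf4 were 1 and 6, whose libraries were most alike. The r of 0.970 with Hspa5 and of 0.493 with Asns are therefore the values without that pair.

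**Figure D4:**
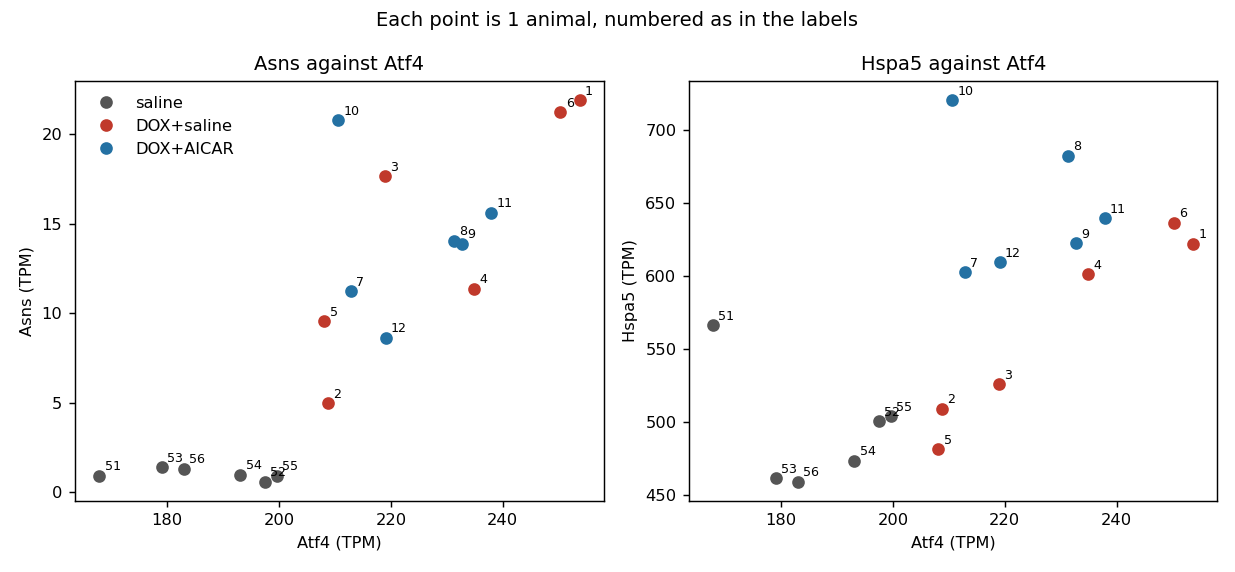
TPM of Asns (left) and Hspa5 (right) against TPM of Atf4, with 1 point per animal coloured by group and numbered as in the labels; axes do not start at 0. In DOX+saline, animals 1 and 6 sit at the upper right of both panels, and in DOX+AICAR animal 10 has the highest Asns and Hspa5 with the lowest Atf4 of its group.

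Over all 18 libraries, the gene most like each member was sought by Pearson's r of log2(TPM + 1) and is given as a description, since the 18 libraries span the difference between saline and doxorubicin. The closest to Asns was ENSRNOG00000017469 (r = 0.989), at 66.4 ± 5.79 TPM without doxorubicin, 141 ± 28.6 TPM with it and 144 ± 13.9 TPM with AICAR added (SD, n = 6). The closest to Atf3 was ENSRNOG00000016950 (r = 0.986), at 51.3 ± 11.8, 251 ± 49.3 and 229.6 ± 62.8 TPM in the same order of groups. In all, 1229 genes had r above 0.9 with Asns, 420 with Atf3, 376 with Trib3, 102 with Atf4, 10 with Hspa5 and 0 with Ddit3.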

How the data were processed

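Polyadenylated heart RNA of 18 rats, 6 per group, was sequenced as strand-specific, paired libraries, per the labels' protocols. Per the submitters' processing notes, bcl2fastq 2.17.1.14, HISAT2 and featureCounts of Subread 1.5.0 were used with build Rnor_6.0. No annotation release or strand setting is given in the sources used here. The authors deposited TPM values, which sum to 1000000 per library, so every value is a share of its library. Whole reads were recovered from ratios between libraries: 100% of the 25878 genes above 0 were solved within 0.0001 reads. They show depth and counting error, and served in voom.

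Groups follow the treatment labels, 1 library per animal. log2(TPM + 1) of the 14732 genes that reached 1 TPM in 6 or more libraries was fitted with limma 3.58.1 in R 4.3.3 (group means, mean-variance trend, all 18 libraries, two-sided). P-values were adjusted by Benjamini-Hochberg over all genes tested, with a threshold of 0.05. The limma fit was also run on simulated data in which a small set of genes changed, all upward. That setting differs from these data, where 58% of genes were called in DOX+saline against saline, so no result here rests on it. Permutation tests used Python 3.11.15. Fold changes on this scale understate the change of low genes. The members and lists were chosen with earlier results of these data known. By rule all 7 members are named, with the closest genes of highest r that rose and that fell after doxorubicin. None of the closest genes fell, so only genes that rose are printed. The 11 pathway lists (116 symbols) and 11 marker lists were not analysed here: 0 identifiers matched the reference table (47357 genes, GRCr8). Alternatives were other pseudocounts, filters, scalings, libraries and weights, each animal left out, and, chosen after seeing the data, voom and leaving out DOX+saline animals 1 and 6.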

Additional observations from a re-analysis of the deposited data

Results flagged for a closer look

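Of 21 sets of 6 values (7 genes in 3 groups), 2 held an animal far from the others by a fixed rule on gaps, where chance picks about 1 in 20 sets. Saline animal 55 had 8.49 TPM of Atf3, where the other 5 saline animals had 3.71 to 4.47 TPM. Without it the log2 change of Atf3 in DOX+saline against saline was 3.68, against 3.54 with it. Saline animal 51 had 78.6 TPM of Ddit3, where the other saline animals had 86.9 to 91.5 TPM. Without it the log2 change of Ddit3 in DOX+saline against saline was -0.040 and its limma adjusted p 0.661.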

How the results depend on the processing

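Atf4, Atf3, Asns and Trib3 were called higher against saline in both doxorubicin groups in each of the 29 alternatives. The calls on members ranged from 4 to 5 for DOX+saline and from 5 to 6 for DOX+AICAR against saline. Between the doxorubicin groups 1 member instead of 0 was called with array weights (Ddit3) and without DOX+saline animals 1 and 6 (Hspa5), and 0 to 1 when 1 animal was left out. The number of genes called was 7000 to 10014 for DOX+saline and 6541 to 8722 for DOX+AICAR against saline. Between the doxorubicin groups it was 196, against 321 with quantile normalization, 16 with only the 12 libraries compared, 1058 with array weights and 36 to 461 with 1 animal left out. It moved by more than 1.5 times without saline animals 52 (130), 53 (105), 54 (106), 55 (108) or 56 (126), DOX+saline animals 1 (49), 2 (461), 3 (43), 4 (121) or 6 (48), or DOX+AICAR animals 9 (39), 10 (36), 11 (60) or 12 (89). The cause was not tested.

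Scaling shifted the median log2 change of all genes in DOX+saline against saline by -0.11 (median-of-ratios) and -0.16 (quantile), and in DOX+AICAR against saline by -0.10 and -0.15. The share of calls that were higher in DOX+saline was 65.5% as deposited, 48.0% with median-of-ratios and 41.0% with quantile normalization, and in DOX+AICAR against saline 65.4%, 47.4% and 40.5%.

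Signs turned only for differences that were not called. With 1 animal left out, the Ddit3 change after doxorubicin ran from -0.078 to 0.028 and that of Fgf21 from -0.023 to 0.16; between the doxorubicin groups, Atf4 ran from -0.056 to 0.0012, Atf3 from -0.22 to 0.12 and Asns from -0.18 to 0.20. Without DOX+saline animals 1 and 6, Ddit3 after doxorubicin was 0.054 and Atf4 between the doxorubicin groups 0.042. With array weights Asns between these groups was -0.26. The number of relations between members past adjustment was 0 with either pseudocount. No paired analysis was possible because the groups share no animal numbers. Alternatives for the other pathway lists were not run, since no identifier matched. Depth limits Fgf21 most, at 1 to 14 reads per library.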
